A study of Bos taurus with 10 samples.

Results

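The oviduct responds to the ovarian steroids of the oestrous cycle and carries a receptor for glucocorticoids. This report covers 9 genes of that system out of the 26804 genes in the expression table of bovine oviductal organoids. They are the nuclear receptors ESR1 (oestrogen receptor alpha), PGR (progesterone receptor) and NR3C1 (glucocorticoid receptor), the membrane components PGRMC1 and PGRMC2, and the steroid-regulated genes FKBP5, TSC22D3, CRISPLD2 and GREB1. All 9 were chosen by name as known receptors and targets, with earlier results of these data known. Each was found once in the table by its symbol.

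Organoids are small hollow cultures that epithelial cells form in a gel matrix. The study grew them from cells scraped out of Bos taurus oviducts, which came from slaughterhouse tracts in diestrus, the phase of an active corpus luteum. The heat stress (HS) group spent the final day of culture at 42 °C and the thermoneutral group stayed at 37 °C, each with 5 replicates named A to E. Oviducts of a pair of animals were pooled for each replicate, and both temperatures received cells of the same oviducts. No steroid is listed in the medium, which was the same for both groups and held the supplements B27 and N2. As usually formulated both supplements contain progesterone, and B27 also corticosterone. Steroid levels in the cultures were not analysed here. The sources used here give no age of the animals. 42C A is the HS library of replicate A, and the others are named likewise.

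Steroid receptors of the nuclear family are transcription factors held by a complex of the HSP90 chaperone and its helpers until a hormone binds. The bound receptor then enters or stays in the nucleus, gathers coregulators at its target genes and changes their transcription. In the oviduct, oestrogen is known to favour secretory activity and to raise PGR, and progesterone to oppose many effects of oestrogen. Glucocorticoids act through NR3C1 in nearly every tissue. PGRMC1 and PGRMC2 are haem-binding proteins of the membrane-associated progesterone receptor family, a family unrelated to PGR.

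Values are TPM, as deposited, an abundance measure that is corrected for transcript length and sums to 1000000 in every library. TPM keeps no read number per gene, so that no counting interval can be given. Differences are 42 °C minus 37 °C in log2(TPM + 1), a scale on which changes of weakly expressed genes look smaller than they are. They were tested with limma over 12149 genes, those with no less than 1 TPM in 4 or more of the 9 libraries. A gene was called when its Benjamini-Hochberg adjusted p was below 0.05 and its difference was at least 1 in size, that is 2-fold. Means are given ± SD, with n = 4 at 42 °C (A, C, D and E) and n = 5 at 37 °C. Differences are followed by their standard error (SE) or their 95% confidence interval (CI).

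Before any gene is described, 2 HS libraries have to be set apart. 42C B was left out of the comparison, since the study excluded 1 HS replicate, which its text does not name. The study's mean of HSPA1A at 42 °C (4367.03 TPM) equals the mean of 42C A, C, D and E here. On the first principal component (58.9% of the variance) 42C B lay at 72.2, 42C C, D and E at 51.2 to 55.9, 42C A at 2.17 and the 37 °C libraries at -49.5 to -43.5. 42C A thus lay between the others of its group and the 37 °C libraries. In 42C B several of the genes below went another way than in the rest of its group, and its values are printed beside theirs. The median difference of all tested genes was 0.30, so that an average gene read as somewhat higher at 42 °C. Scaling each library by its median ratio took that median to -0.01 and quantile normalization to 0.07. Calls were 68.8% higher among all called genes with TPM as deposited, 39.1% with median-ratio scaling and 43.9% with quantile normalization. Epithelial genes such as EPCAM (1033 ± 152 TPM at 42 °C, against 657 ± 105 TPM at 37 °C), KRT8 and PAX8 were well expressed in both groups. EPCAM is 1 of 13 secretory and epithelial markers, whose median difference was -0.16. Their summed levels were lower in 42C A, C, D and E (9294 to 13436 TPM) than at 37 °C (14080 to 16985 TPM). Single markers went both ways. Of the 12 tested, 1 was called higher and 2 lower, against 15.8% and 7.14% of all tested genes. Under the fold threshold, 5 more were higher and 4 more lower at adjusted p below 0.05. Called ones included, 45.1% and 18.1% of all tested genes had such a p on these sides. OVGP1, the oviductal glycoprotein of secretory cells, reached at most 0.726 TPM in any library. The study reports OVGP1 protein in its organoids by immunostaining, and describes the gene as stably expressed in its sequencing of both groups. The values here are of RNA only.

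**Figure D1:**
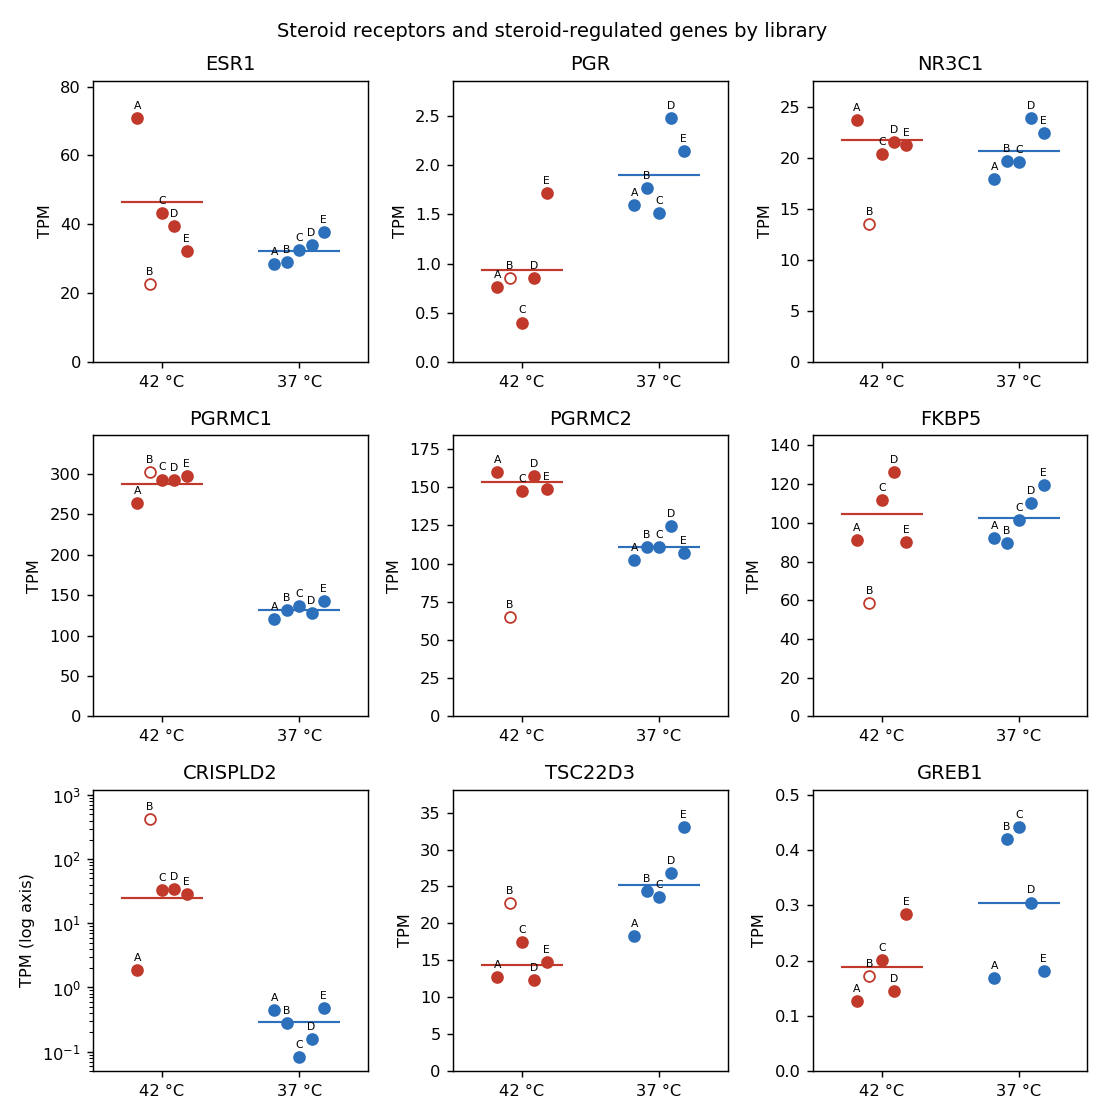
TPM of the 9 genes in each library, with 42 °C (red) on the left and 37 °C (blue) on the right of every panel; letters name the replicate, the open circle is 42C B, which was left out of the comparison, and bars are means of the filled points. The CRISPLD2 axis is logarithmic and the others start at 0. PGRMC1, PGRMC2 and CRISPLD2 lay higher at 42 °C and TSC22D3 lower without overlap of the filled points, while ESR1, PGR, NR3C1, FKBP5 and GREB1 overlapped.

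Of the 9 genes, 8 entered the test and GREB1 stayed under the filter. PGRMC1 and CRISPLD2 were called higher at 42 °C, where 15.8% of all tested genes were called higher. None was called lower, against 7.14% of all tested genes. Without the fold threshold, 3 of the 8 had an adjusted p below 0.05 and a positive difference, where 45.1% of all genes did, and 2 had a negative one, where 18.1% did. The groups did not overlap in 3 of the 8 on the higher side, against 36.6% of all genes, and in 1 of the 8 on the lower side, against 12.3%. With 8 genes such shares are coarse, and CRISPLD2 passed the filter only through its 4 HS libraries, so that it had to differ. PGR was carried past the filter by its 37 °C libraries alone, the group in which it is high. The counts therefore say nothing of these genes as a group, and each is described by itself.

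ESR1 (ENSBTAG00000007159) encodes the receptor through which oestradiol acts on most oviductal cells. It was at 71.0, 43.3, 39.5 and 32.2 TPM in 42C A, C, D and E, against 28.4, 29.1, 32.6, 33.9 and 37.9 TPM in 37C A to E. The highest value was that of 42C A, and 42C E lay within the range of the 37 °C libraries. The excluded 42C B had 22.7 TPM, below every other library. The difference was 0.45 (95% CI 0.03 to 0.88, adjusted p = 0.0607) and was not called. It shrank to 0.23 without 42C A (adjusted p = 0.129) and grew to 0.61 without 42C E (adjusted p = 0.0188). With median-ratio scaling it was 0.12 (adjusted p = 0.636) and with quantile normalization 0.16 (adjusted p = 0.530). With 42C B included it was 0.27 (adjusted p = 0.399). ESR1 varied more among HS libraries, with a coefficient of variation of 36.5% at 42 °C and 11.8% at 37 °C. Set against the libraries of the same letter, ESR1 was 2.50-fold higher at 42 °C for letter A, 1.33-fold for C and 1.17-fold for D. It was lower at 42 °C for E (0.85-fold) and for the excluded B (0.78-fold).

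PGR (ENSBTAG00000024648), itself a well known target of ESR1, was at the edge of detection. It was listed at 0.761, 0.401, 0.855 and 1.72 TPM in 42C A, C, D and E, and at 1.60, 1.77, 1.51, 2.48 and 2.14 TPM in 37C A to E. Only 42C E reached the 37 °C range, and 42C B with 0.848 TPM resembled the other HS libraries. The difference was -0.62 (SE 0.22, adjusted p = 0.0275), below 0 in all 5 letters but under the fold threshold. The 37 °C libraries alone carried PGR past the filter on low values, and only 42C E of the tested HS libraries reached 1 TPM. PGR thus entered the test through the group in which it is high, so that these p-values carry no weight of their own. In the fit with no filter on low values the adjusted p was 0.0243. With the filter, the adjusted p was 0.0902 without 42C C, 0.0543 without 42C D and 0.00678 without 42C E. It was 0.0613 without 37C D and 0.0566 without 37C E. Since a pseudocount of 1 is as large as the values themselves, the size of the difference follows this choice, and with a pseudocount of 0.1 it was -1.08 and called lower (adjusted p = 0.0295). Levels of ESR1 and PGR thus lay far apart, with ESR1 at 46.5 ± 17.0 TPM at 42 °C, against 32.4 ± 3.83 TPM at 37 °C and PGR at 0.934 ± 0.559 and 1.90 ± 0.406 TPM. Among all tested genes by mean TPM, PGR stood at the percentile 2.26 at 42 °C and 8.85 at 37 °C, and ESR1 at 69.6 and 65.6.

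NR3C1 (ENSBTAG00000019472), the receptor for cortisol and corticosterone, was almost level with TPM as deposited. It had 23.7, 20.4, 21.6 and 21.3 TPM in 42C A, C, D and E, against 18.0, 19.7, 19.6, 23.9 and 22.5 TPM in 37C A to E. Both groups covered the same values, and 13.6 TPM in 42C B lay below all of them. The difference was 0.07 with a 95% CI of -0.19 to 0.33 (adjusted p = 0.615). Relative to the median of all genes it was -0.23. With median-ratio scaling it was -0.26 (adjusted p = 0.0597) and with quantile normalization -0.28 (adjusted p = 0.0412), not called in either. The direction of NR3C1 thus depends on the scaling.

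PGRMC1 (ENSBTAG00000019552) binds haem, associates with cytochrome P450 enzymes and is linked to rapid progesterone signals. It rose at 42 °C, to about 2.18 times its level at 37 °C. HS libraries had 264.5 (A), 293.3 (C), 293.2 (D) and 297.7 (E) TPM, against 120.1, 131.6, 136.3, 127.7 and 142.4 TPM in 37C A to E. The lowest HS value was far above the highest thermoneutral one, and 42C B, though excluded, stood with its group at 302.4 TPM. Means were 287 ± 15.3 TPM at 42 °C, against 132 ± 8.47 TPM at 37 °C, for a difference of 1.12 (95% CI 0.93 to 1.31, adjusted p = 1.03e-05). Within letters the ratio ran from 2.09 to 2.30, B included. Leaving out each library in turn gave 1.09 to 1.16, called in all 9 fits. With median-ratio scaling the difference was 0.78 (adjusted p = 5.51e-05), under the fold threshold, and it was 0.82 above the median of all genes. Of the 9 genes it was the most abundant in both groups, at the percentile 95.6 of tested genes at 42 °C and 90.1 at 37 °C.

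PGRMC2 (ENSBTAG00000010843), the close relative that carries haem to the nucleus in fat cells of mice, differed by less. It had 159.9, 147.3, 157.7 and 148.6 TPM in 42C A, C, D and E, and 102.5, 110.8, 111.1, 124.6 and 106.9 TPM in 37C A to E. These 2 groups did not overlap, but 42C B had 65.2 TPM, the lowest of all 10 libraries. The difference of 0.46 (95% CI 0.27 to 0.66, adjusted p = 0.000848) was 1.38-fold and not called. With 42C B included it was 0.22 (adjusted p = 0.446), and with median-ratio scaling 0.12 (adjusted p = 0.249).

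A ratio of 2 genes within a library is unmoved when that library is scaled by 1 factor, though quantile normalization can move it. For 3 such ratios an exact two-sided permutation test was run, with adjustment over the 3. For PGRMC2 over PGRMC1 the log2 ratio was -0.73, -0.99, -0.89 and -1.003 in 42C A, C, D and E, against -0.23, -0.25, -0.29, -0.04 and -0.41 in 37C A to E. Every HS library was below every thermoneutral one, and 42C B was lower still at -2.21. The mean was -0.90 ± 0.13 at 42 °C and -0.24 ± 0.14 at 37 °C, a difference of -0.66 (exact permutation p = 0.0159, the smallest this design allows, adjusted p = 0.0238). At 37 °C the ranges of PGRMC1 and PGRMC2 overlapped, with means of 132 and 111 TPM. At 42 °C they did not, with means of 287 and 153 TPM.

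**Figure D2:**
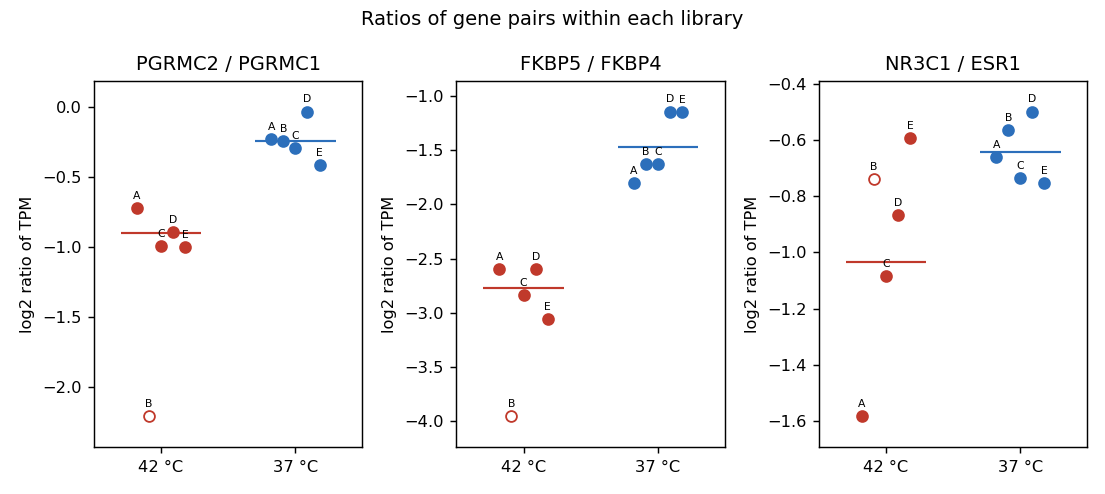
Log2 ratios of TPM within each library for PGRMC2 over PGRMC1, FKBP5 over FKBP4 and NR3C1 over ESR1, with 42 °C (red) left of 37 °C (blue); letters name the replicate, the open circle is 42C B, which took no part in the test, and bars are means of the filled points. The first 2 ratios did not overlap between the groups (mean differences -0.66 and -1.31), and the third did (-0.39).

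FKBP5 (ENSBTAG00000047502) binds HSP90 in receptor complexes, lowers their affinity for hormone and is among the most widely used target genes of glucocorticoid and progesterone receptors. It had 91.1, 111.9, 126.2 and 89.9 TPM in 42C A, C, D and E, against 92.1, 89.6, 101.6, 110.5 and 119.5 TPM in 37C A to E. Means were 105 ± 17.5 TPM at 42 °C, against 103 ± 12.5 TPM at 37 °C, and 42C B lay lowest at 58.5 TPM. The difference of 0.02 had a 95% CI of -0.26 to 0.31 (adjusted p = 0.888), and its sign turned with the scaling. It was -0.32 with median ratios (adjusted p = 0.0445) and -0.10 with quantile normalization (adjusted p = 0.508), not called in either. When single libraries were left out, it ran from -0.07 to 0.09.

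FKBP4 takes the place of FKBP5 on HSP90 and has the opposite effect on hormone binding. Unlike FKBP5 it rose, with 716 ± 111 TPM at 42 °C, against 284 ± 32.7 TPM at 37 °C (difference 1.33, adjusted p = 2.51e-05). With median-ratio scaling its difference was 0.98, just under the fold threshold. The log2 ratio of FKBP5 to FKBP4 was -2.60, -2.84, -2.60 and -3.06 in 42C A, C, D and E, against -1.80, -1.63, -1.62, -1.14 and -1.14 in 37C A to E. The highest HS ratio lay below the lowest thermoneutral ratio, and 42C B had -3.96. The difference of the means was -1.31 (-2.77 ± 0.22 at 42 °C and -1.47 ± 0.31 at 37 °C, exact permutation p = 0.0159, adjusted p = 0.0238).

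For NR3C1 over ESR1 the log2 ratio was -1.58, -1.08, -0.87 and -0.59 in 42C A, C, D and E, against -0.66, -0.56, -0.74, -0.50 and -0.75 in 37C A to E. 42C E stood among the 37 °C libraries. The difference of -0.39 did not pass (exact permutation p = 0.0794, adjusted p = 0.0794). It was -0.21 without 42C A (adjusted p = 0.179) and -0.54 without 42C E, where it passed (adjusted p = 0.0357).

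The replicate letters pair libraries of the same oviducts. An exact sign-flip test over the 4 complete pairs cannot go below p = 0.125. Paired in this way, the ratio of PGRMC2 to PGRMC1 differed by -0.66 and that of FKBP5 to FKBP4 by -1.35, in the same direction in 4 of 4 letters (exact adjusted p = 0.1875 for each). Without 42C A, 42C C or 42C D the unpaired adjusted p of both ratios was 0.0536, with differences of -0.72, -0.63 and -0.66 for PGRMC2 to PGRMC1 and of -1.36, -1.29 and -1.37 for FKBP5 to FKBP4. With 3 HS libraries the smallest p before adjustment is 0.0357.

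TSC22D3 (ENSBTAG00000045877), also named GILZ, is a leucine zipper protein that glucocorticoids induce in many cells. It had 12.7, 17.5, 12.3 and 14.8 TPM in 42C A, C, D and E, against 18.3, 24.4, 23.5, 26.9 and 33.1 TPM in 37C A to E. The 4 HS libraries were all below the 5 thermoneutral ones, though 42C B at 22.7 TPM was not. Means were 14.3 ± 2.38 TPM at 42 °C, against 25.3 ± 5.39 TPM at 37 °C. The difference of -0.77 (95% CI -1.14 to -0.39, adjusted p = 0.00227) was under the fold threshold and not called with TPM as deposited. It was called lower with median-ratio scaling (-1.09, adjusted p = 0.000208) and with quantile normalization (-1.12, adjusted p = 0.000213). It lay 1.07 below the median of all genes. Within letters the ratio was lowest for E (0.446) and D (0.457) and highest for B (0.93).

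CRISPLD2 (ENSBTAG00000021176) encodes a secreted protein that progesterone induces in human endometrial stroma and glucocorticoids induce in human airway smooth muscle. The study had already listed it among its top upregulated genes at 42 °C. It had 1.89, 32.7, 34.8 and 28.8 TPM in 42C A, C, D and E, against 0.452, 0.275, 0.0837, 0.157 and 0.486 TPM in 37C A to E. 42C C, D and E were close to each other, 42C A was far below them and yet above every thermoneutral library, and 42C B reached 422.1 TPM. Means were 24.6 ± 15.3 TPM at 42 °C, against 0.291 ± 0.177 TPM at 37 °C. The difference was 3.81 (95% CI 2.44 to 5.18). The gene entered the test only through the group in which it is high, so that its call (adjusted p = 0.000335) carries no weight of its own. In the fit with no filter on low values, which this does not touch, the adjusted p was 0.00132. With the filter, the difference was 4.69 without 42C A and 4.72 with 42C B included. The TPM ratio within letters was 4.18 for A, 391 for C, 222 for D and 59.4 for E, ratios that rest on thermoneutral values below 0.5 TPM. At 42 °C its mean stood at the percentile 52.2 of tested genes, and at 37 °C at the percentile 0.189. When the filter on low values is applied afresh without any 1 of the 4 HS libraries, CRISPLD2 falls under it, and the values given here keep the gene in the test.

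GREB1 (ENSBTAG00000015402), an oestrogen-induced coactivator of ESR1 in human breast cancer cells, was below 1 TPM in all 10 libraries. It was listed at 0.126 to 0.285 TPM at 42 °C and 0.169 to 0.443 TPM at 37 °C, which overlap, and it was not tested. With no filter on low values its difference was -0.13 (adjusted p = 0.227).

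**Figure D3:**
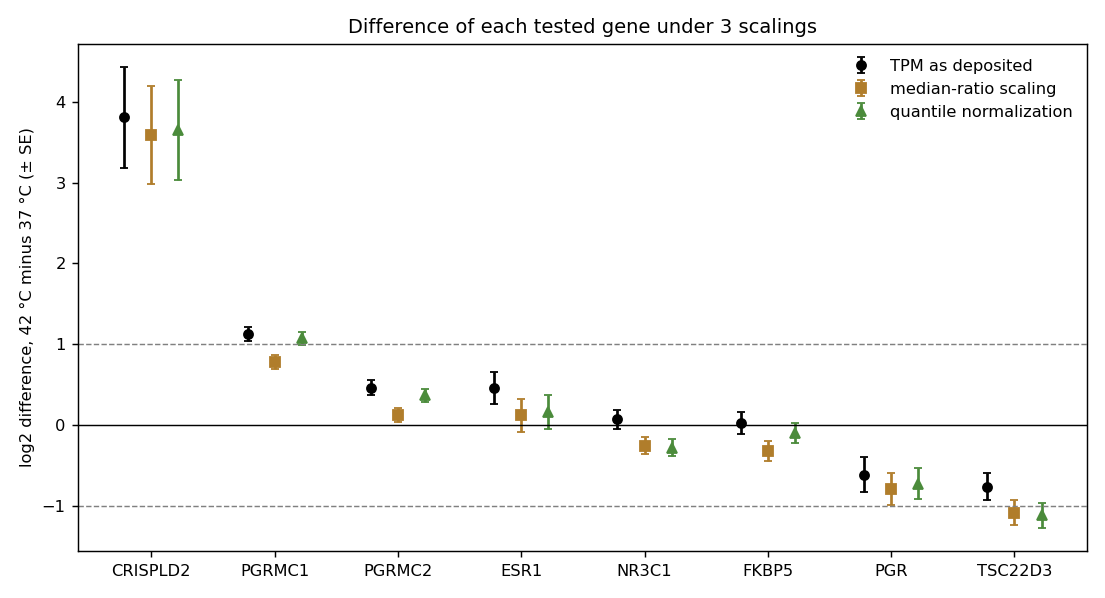
Log2 differences (42 °C minus 37 °C, ± SE) of the 8 tested genes with TPM as deposited, after median-ratio scaling and after quantile normalization; dashed lines mark the fold threshold of 1. PGRMC1 stood at 1.12, 0.78 and 1.07 and TSC22D3 at -0.77, -1.09 and -1.12, while NR3C1 and FKBP5 changed sign.

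By level, the order at 42 °C was PGRMC1, PGRMC2, FKBP5, ESR1, CRISPLD2, NR3C1, TSC22D3, PGR and GREB1. Ranges of ESR1 and CRISPLD2 overlapped there, as did those of CRISPLD2 and NR3C1, and the other neighbours did not overlap. At 37 °C the order was PGRMC1, PGRMC2, FKBP5, ESR1, TSC22D3, NR3C1, PGR, GREB1 and CRISPLD2. In that group only FKBP5 and ESR1, NR3C1 and PGR, and PGR and GREB1 were separated, and all other neighbours overlapped. Apart from CRISPLD2, which stood between ESR1 and NR3C1 at 42 °C and last at 37 °C, the order of the other genes differed only in TSC22D3 and NR3C1, which were exchanged.

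The genes whose log2(TPM + 1) ran most like these over the 9 libraries were found by Pearson's r. Such values are a description, since the same difference between the temperatures and the same oviducts enter every pair. For PGRMC1 the closest were DNAJA1 (r = 0.997), a co-chaperone of HSP70, FAM219B (0.995) and HSPH1 (0.994), the HSP110 chaperone. HSPH1 stood at 461 TPM at 42 °C, against 35.8 TPM at 37 °C. For CRISPLD2 they were GHITM, MGAT2 and DET1 (0.994 each), all well expressed at both temperatures. For PGRMC2 they were ABR, MOB1B and CSNK2A1 (0.986 to 0.989), and for TSC22D3 ASB11 (0.970), SORD (0.956) and CHI3L1 (0.951). CHI3L1 fell to 310 TPM at 42 °C, against 712 TPM at 37 °C. For PGR they were FBF1, OXNAD1 and ZBED5 (0.961 to 0.981), for ESR1 CCNG1, MLLT10 and LRRC66 (0.928 to 0.950), for NR3C1 ANO6, TRPM7 and ITGAV (0.944 to 0.952) and for FKBP5 C6orf52, MSL3 and SCIN (0.914 to 0.929).

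Around these genes, 6 lists of the steroid pathway were read from the same fit, each by its number of called genes and its median difference beside 0.30 for all tested genes. The first held other steroid receptors and membrane components, 13 of its 14 symbols were in the table, and 7 were tested. PAQR5, a membrane progestin receptor (gamma), rose to 10.1 ± 1.82 TPM at 42 °C, against 4.51 ± 1.06 TPM at 37 °C (1.01, adjusted p = 0.000633). PAQR6, the delta form, fell to 2.55 ± 1.72 TPM, against 7.11 ± 2.25 TPM at 37 °C (-1.28, adjusted p = 0.00359). The call of PAQR5 was lost without any 1 of 42C C, 42C D, 37C A or 37C C (0.92 to 0.98) and under both other scalings. It was also lost with a pseudocount of 5 (0.66) and with 42C B included (0.75, adjusted p = 0.0477). In 42C B PAQR5 stood at 3.35 TPM, within the 37 °C range of 3.20 to 6.09 TPM, and PAQR6 at 1.74 TPM, below the 37 °C range. The other members named here were chosen after their values were seen. NENF, a secreted relative of PGRMC1, differed by 0.31 (adjusted p = 0.0167) and was not called. ESRRA, PAQR8 and CYB5D2 had adjusted p-values of 0.149 to 0.818. ESR2, the second oestrogen receptor, reached at most 2.30 TPM and NR3C2, the mineralocorticoid receptor, at most 1.25 TPM, and both were under the filter together with ESRRB, ESRRG, PAQR7 and PAQR9. The list's median was 0.09.

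The chaperones and HSP90 helpers that hold the receptors were called higher in 10 of 22 and lower in none, where 15.8% of all tested genes were called higher and 7.14% lower, with a median of 0.81. Among them were HSPA1A, the inducible HSP70 (4367 ± 1745 TPM at 42 °C, against 430 ± 30.2 TPM at 37 °C, difference 3.22, adjusted p = 1.61e-05). DNAJB1, its co-chaperone, rose by 2.32 (432 ± 144 TPM at 42 °C, against 81.1 ± 6.5 TPM at 37 °C). HSP90AA1, the inducible HSP90, rose by 1.90 (1837 ± 183 TPM at 42 °C, against 488 ± 16.5 TPM at 37 °C), and DNAJA1 by 1.75. Many of these are themselves heat shock genes. HSPA1A has a near-identical copy in cattle, between which reads may have been split, and its value is uncertain for that reason. With median-ratio scaling 5 of the 22 were called higher, where 7.58% of all genes were.

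Coregulators of steroid receptors were called higher in 12 of 37 and lower in 3 (15.8% and 7.14% of all tested genes), with a median of 0.48. The share called lower was close to that of all genes. NSD1, a histone methyltransferase, rose by 1.57 (32.3 ± 6.64 TPM at 42 °C, against 10.2 ± 1.84 TPM at 37 °C). The histone methyltransferases KMT2D and KMT2C rose by 1.50 and 1.47. PHB2, a prohibitin that represses oestrogen receptor activity and is also a mitochondrial scaffold, fell to 79.5 ± 51.5 TPM at 42 °C, against 325 ± 32.3 TPM at 37 °C (-2.19, adjusted p = 8.60e-05). With both other scalings 4 of the 37 were called higher, where 7.58% (median ratios) and 8.07% (quantile) of all genes were.

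Of genes known to respond to glucocorticoids 5 of 40 were called higher and 3 lower, with a median of 0.23. These shares were close to the 15.8% and 7.14% of all tested genes, so that the counts are no result about the list. CDKN1C, a cell cycle inhibitor, rose by 1.58 (adjusted p = 0.00702), with 41.7 ± 21.4 TPM at 42 °C, against 11.8 ± 4.38 TPM at 37 °C. In 42C A it was at 11.3 TPM, within the 37 °C range, and in 42C B at 231 TPM. CDKN1A, the p53-responsive inhibitor p21, rose by 1.56 and the transcription factor TFCP2L1 by 1.46. MT2A, a metal-binding metallothionein, fell by 1.50 (412 ± 115 TPM at 42 °C, against 1147 ± 236 TPM at 37 °C), and its near-identical metallothionein relatives make that value uncertain. Of classical targets, chosen here after their values were seen, SGK1 (-0.89, adjusted p = 0.00672) and KLF9 (-0.70, adjusted p = 0.0109) had negative and PER1 (0.65, adjusted p = 0.000688) positive differences, and DUSP1 had 0.17 (adjusted p = 0.690), none of them called. Without 42C E 5 of the 40 were called lower. Median-ratio scaling left 3 higher and 8 lower calls in the list (7.58% and 11.8% of all genes). Quantile normalization left 3 and 7 (8.07% and 10.3% of all genes).

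Genes known to respond to oestrogen or progesterone were called higher in 4 of 43 and lower in 4, where 15.8% and 7.14% of all tested genes were, with a median of 0.12. RAB31, an oestrogen-responsive GTPase in breast cancer cells, rose to 33.7 ± 4.62 TPM at 42 °C, against 10.2 ± 1.68 TPM at 37 °C (1.64, adjusted p = 2.10e-05). GAS1 fell by 1.55, TFF3, a trefoil peptide of mucosal surfaces, by 1.48 (258 ± 150 TPM at 42 °C, against 657 ± 101 TPM at 37 °C) and ALPL, an alkaline phosphatase, by 1.33 (adjusted p = 0.0427). The call of ALPL was lost without any 1 of 42C C, D or E or 37C A, B, C or D (adjusted p = 0.0507 to 0.130). TFF1, HOXA10, HOXA11, HAND2 and DKK1, chosen after their values were seen, were listed at 0 in all 10 libraries. Median-ratio scaling left 1 higher and 7 lower calls in the list, against 7.58% and 11.8% of all genes. Quantile normalization left 2 and 7, against 8.07% and 10.3%.

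Enzymes and transporters of steroids were called higher in 2 of 32 and lower in 3, against 15.8% and 7.14% of all tested genes, with a median of 0.06. CYP11A1, which cleaves the side chain of cholesterol as the first step of steroid synthesis, fell to 2.72 ± 3.09 TPM at 42 °C, against 10.5 ± 3.04 TPM at 37 °C (-1.91, adjusted p = 0.00248). In 42C A it stood at 7.26 TPM, within the 37 °C range. SULT1A1, a sulfotransferase that also acts on oestrogens, fell by 1.83 (423 ± 168 TPM at 42 °C, against 1437 ± 128 TPM at 37 °C), with possible sharing of reads with close relatives. HSD17B8, which oxidizes oestradiol, fell by 1.11, a call lost without 42C C (-0.98, adjusted p = 0.00264). STARD4, a carrier of cholesterol, rose by 1.28. STAR, HSD3B1, CYP17A1 and CYP19A1, chosen after their values were seen, stayed below 1 TPM in every library. Without 42C A 5 of the 32 were called lower, and without 37C A or 37C C 1 was called higher. Both other scalings gave none higher and 6 lower, where 11.8% (median ratios) and 10.3% (quantile) of all genes were called lower, and under both STARD4 was not called (0.97 and 0.91).

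**Figure D4:**
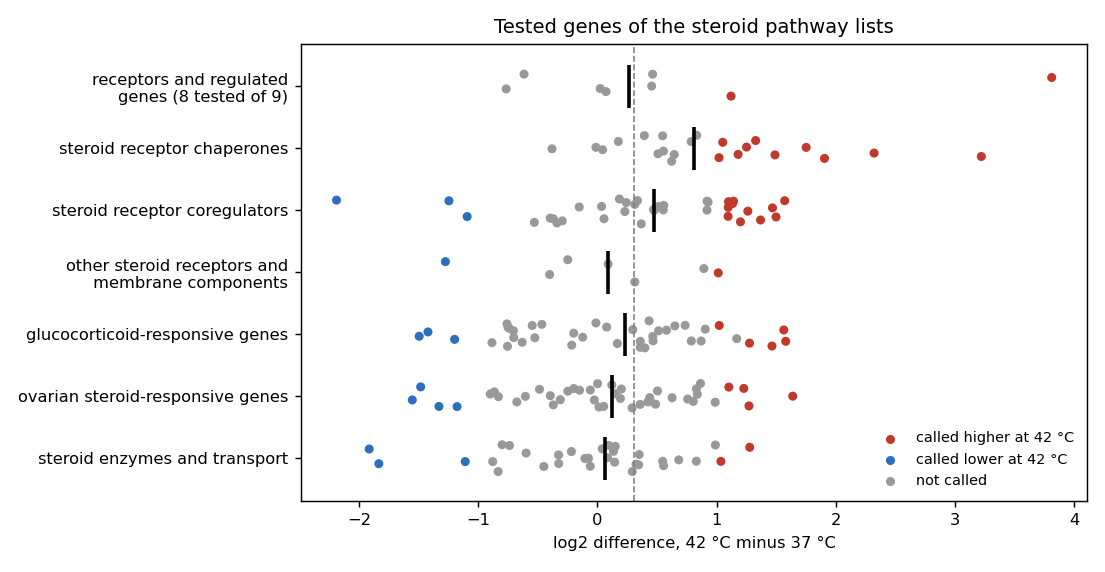
Log2 differences (42 °C minus 37 °C) of the tested genes of the 9 described here and of the 6 steroid pathway lists; each point is a gene, red and blue points are called higher and lower at 42 °C, black bars are medians and the dashed line is the median of all tested genes (0.30). Chaperones had the highest median (0.81) and no gene called lower, and steroid enzymes and transport the lowest (0.06).

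Genes listed as cell type markers moved with the temperature beside all of these results, and their counts stand against 15.8% of all tested genes called higher and 7.14% called lower. Whether the cells they are listed for were present was not tested here. In bulk RNA, fewer cells of a type and less RNA per cell cannot be told apart. Ciliated markers were called lower in 8 of 10 tested, with summed levels of 25.4 to 46.9 TPM at 42 °C and 52.2 to 157 TPM at 37 °C. Mesothelial markers were called lower in 4 of 5 (sums of 1196 to 2558 TPM at 42 °C and 2477 to 6293 TPM at 37 °C). These sums include MSLN, which the study lists among the most expressed genes of its 37 °C organoids. Whether mesothelial cells gave these sums was not tested. Stromal markers were called lower in 2 of 3, VIM and THY1 (sums of 32.5 to 184 TPM at 42 °C and 275 to 571 TPM at 37 °C), and 8 of all 12 were below 1 TPM in all 10 libraries. Of 9 leukocyte markers 8 were below 1 TPM in all 10 libraries, PTPRC among them, and CD68 was called higher (sums of 1.82 to 9.46 TPM at 42 °C and 0.632 to 1.45 TPM at 37 °C). Secretory and epithelial markers had 1 of 12 called higher, CLDN4, and 2 lower, KRT19 and PAX2 (sums of 9294 to 13436 TPM at 42 °C and 14080 to 16985 TPM at 37 °C). The part of these cell types in the values of the receptors and their targets was not tested.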

How the data were processed

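RNA-seq of 5 HS and 5 thermoneutral organoid cultures was analysed. The study's methods name CLC Genomics Workbench for mapping to ARS-UCD1.2, with normalization by TMM, and expression given per gene as TPM. The TPM values were used as the authors deposited them, and each column sums to 1000000, so that no factor between libraries remained. The submitters' processing notes also list bcl2fastq, Bowtie2 2.2.2 and DESeq2, and the sources used here do not give their steps. The study gives read totals per library. TPM keeps no read number per gene, so that no count stands behind a single value here.

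The table holds 26804 genes. Those with no less than 1 TPM in 4 or more of the 9 libraries (12149, or 45.3%) were tested on log2(TPM + 1) with limma 3.58.1 in R 4.3.3 (eBayes with trend, two-sided), with Benjamini-Hochberg adjustment over all of them. The study's own count model could not be used on TPM. The steps were tested on simulated data. In the fits with libraries left out or added, or scaled otherwise, the set of tested genes was held fixed. Log2 ratios were taken without a pseudocount. All columns were matched by title, and figures were drawn with matplotlib 3.10.9.

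The study states that the same oviducts were represented at both temperatures, so the letters pair the libraries. Deviations of same-letter libraries from their group means correlated at 0.125 (A), 0.238 (B), 0.369 (C), 0.273 (D) and 0.211 (E), and each library matched its own letter best. The comparison has no block, as in the study's methods, and the block was an alternative. Each replicate pooled cells of a different pair of animals. The p-values without the block thus measure the spread between these pools within each temperature.

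The 9 genes, the 6 pathway lists and 5 lists of cell markers were chosen with earlier results of these data known. Named genes are the 9, up to 4 called genes per pathway list with the largest difference among those with a mean of 2 TPM or more, FKBP4, and the 3 genes most like each tested one. Other names were chosen after their values were seen. No sequence is printed, since no sequence tables of this annotation were used here. Coordinates are left out, since the annotation used for names is of another build than the files. A gene of the list of other receptors is not reported here by name.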

Additional observations from a re-analysis of the deposited data

Results flagged for a closer look

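A library far from the others of its group was looked for among the 5 libraries of each temperature, by Dixon's ratio of the gap to the range, with a critical value of 0.71. Of 70 such tests 10 stood out, where chance gives about 1 in 20. All 10 concern 42C A or 42C B.

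42C A stood apart toward the 37 °C values for PGRMC1 (264.5 TPM), DNAJB1 (219 TPM), PHB2 (156 TPM), CYP11A1 (7.26 TPM) and HSD17B8 (53.7 TPM). Only for CYP11A1 did it enter the range of the 37 °C libraries.

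42C B stood apart as the lowest HS library for PGRMC2 (65.2 TPM) and for the log2 ratio of PGRMC2 to PGRMC1 (-2.21), and as the highest for CRISPLD2 (422.1 TPM), CDKN1C (231 TPM) and TFCP2L1 (103.5 TPM). As a library outside the comparison, 42C B also held PGRMC1 (302.4 TPM) and CRISPLD2 (422.1 TPM) above every 37 °C library.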

How the results depend on the processing

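The call of PGRMC1 held in all alternatives except median-ratio scaling (0.78). That of CRISPLD2 did in every fit run. All of these except the fit with no filter on low values tested a set that CRISPLD2 entered only through its HS values, so that they are no support for it. The filter applied afresh would also drop CRISPLD2 without any 1 HS library. With a filter on the mean of 5 TPM, PGR was not tested. Under median-ratio scaling 1 of the 8 genes was called higher and 1 lower (TSC22D3). Under quantile normalization 1 was called lower (TSC22D3). With a pseudocount of 0.1 PGR was called lower, a gene that entered the test through the group in which it is high. NR3C1 changed sign with median ratios (-0.26), quantile normalization (-0.28) and all 10 libraries (-0.0566), and FKBP5 with these (-0.32, -0.10 and -0.14), with the replicate block (-0.0236) and when single libraries were left out (-0.0708 to 0.0907), none of them called. Other receptors and membrane components had 2 called higher with a pseudocount of 0.1, 0 higher and 0 lower with 5, and 0 higher under both scalings, with all 10 libraries, and without single libraries (0 to 1). With a pseudocount of 5, coregulators had 4 higher and steroid enzymes 0. Median-ratio scaling gave 5 chaperones, 4 coregulators, 3 glucocorticoid-responsive, 1 ovarian steroid-responsive and 0 enzyme genes higher, and 8, 7 and 6 of the last 3 lists lower. Quantile normalization gave 4 coregulators, 3, 2 and 0 higher and 7, 7 and 6 lower in the same lists. Ovarian steroid-responsive genes had 7 lower with a pseudocount of 0.1 and with all 10 libraries, where 1 enzyme gene was higher. With single libraries left out, glucocorticoid-responsive genes had 2 to 5 lower, enzymes 1 to 3 higher and 2 to 5 lower. For the ratios these ranges were -0.72 to -0.61 (PGRMC2 to PGRMC1), -1.39 to -1.21 (FKBP5 to FKBP4) and -0.54 to -0.21 (NR3C1 to ESR1). With the replicate block the first 2 ratios were -0.66 and -1.35 (adjusted p = 0.1875), too few pairs to pass, and the block changed the call of none of the 8 genes. Over all genes, a pseudocount of 5 gave 884 higher and 487 lower, median-ratio scaling 921 and 1433, and quantile normalization 981 and 1253, against 1915 and 867. The cause of these shifts was not tested. TPM keeps no read count per gene, so that no counting interval could be set on values near or below 1 TPM (PGR, GREB1, CRISPLD2 at 37 °C).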
